A study of Mus musculus with 12 samples.

Results

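Regulatory T cells (Tregs) lacking transketolase were compared with wild-type Tregs where both came from mice given dimethyl α-ketoglutarate (DMαKG), a form of α-ketoglutarate that enters cells. The comparison takes 6 of the 12 RNA-seq libraries of the study, 3 per genotype, and covers every gene of the deposited table, 17955 genes, of which 12903 had enough reads to be tested. The knockout mice (cKO) carried Foxp3YFP-cre, a Cre recombinase driven from the Foxp3 locus, together with TKT fl/fl. The wild-type mice (WT) carried the same Cre with TKT+/+, so the Cre is shared by both groups. All mice were C57BL/6 and 7 weeks old, and DMαKG was in the drinking water from the pregnancy of their mothers onward, so that both genotypes were exposed from before birth. CD4+CD25+YFP+ Tregs were sorted from spleen and lymph node, 3 mice per group by the series' design. The other 6 libraries, from the same genotypes given vehicle, are used beside these where stated. The comparison asks which genes still differ between the genotypes when α-ketoglutarate is supplied to both.

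Transketolase, encoded by Tkt, carries out the sugar exchanges of the non-oxidative arm of the pentose phosphate pathway, which links ribose phosphate to glycolysis. α-Ketoglutarate is an intermediate of the tricarboxylic acid cycle and the co-substrate of the 2-oxoglutarate-dependent dioxygenases. Among these are the TET enzymes, which oxidise methylated cytosine at CpG sites, and the Jumonji histone demethylases. Foxp3 is the transcription factor that defines Tregs, and the demethylated state of its locus and of other Treg loci is part of what keeps these cells stable.

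Summed estimated counts of the 6 libraries ran from 15706791 to 18230774, with 12333 to 12608 genes at 10 or more counts. Levels are given as CPM, counts scaled to a common library size, for replicates 1, 2 and 3 of each group. The Treg defining genes were present in every library: Foxp3 stood at 382, 468 and 454 CPM in WT and at 433, 545 and 280 in cKO; it overlaps Ccdc22. Among the other genes of the Treg check, Il2ra ran from 467 to 651 CPM, Ikzf2 from 1158 to 1543 and Ctla4 from 514 to 3001. WT replicate 3 and cKO replicate 3 stood apart from the other 4 libraries, at −46.1 and 44.5 on the first principal component of the 6, which held 39.0% of the variance; the others lay between −3.10 and 2.39. Levels of the Y-linked gene Ddx3y differed between libraries, at 140, 22.6 and 241 CPM in WT and 0.518, 155 and 0.509 in cKO; the labels give no sex for the mice. Summed levels of markers of other cell types were highest in cKO replicate 3 for most lists: 60.7 CPM for 13 neutrophil markers, against 15.2 to 18.4 in WT and 16.5 and 18.1 in the other cKO libraries. Summed B-cell markers were at 32.4 to 39.5 CPM in WT and 49.2 to 87.7 in cKO, but without Cd22, which was higher in all cKO libraries, at 21.3 to 30.4 and at 25.5 to 59.8, with overlap. Summed levels did not overlap between genotypes for plasma-cell markers (79.1 to 82.1 against 84.8 to 138) or CD8 T-cell markers (51.9 to 72.8 against 82.0 to 94.7), and no marker in these lists was at 0 in all 6 libraries. Most of the plasma-cell sum was Xbp1, at 69.6 to 92.2 CPM over the 6 libraries and overlapping between genotypes. Derl3 did not overlap, at 0.747 to 1.64 CPM in WT and 2.61 to 8.10 in cKO, nor did Mzb1, at 0.160 to 0.234 and 0.324 to 5.02. Jchain was at 1.46 to 2.83 CPM in WT and at 1.30, 2.94 and 29.8 in cKO. All 6 tested plasma-cell markers had a log2 fold change above 0, with a median of 1.38 (0.24 without cKO replicate 3). Most of the CD8 T-cell sum was Ctsw, at 33.7 to 67.8 CPM and without overlap. Cd8b1 did not overlap either, at 12.2 to 14.4 CPM in WT and 14.7 to 17.1 in cKO. Cd8a, at 3.89 to 6.48 CPM, overlapped. All 6 tested CD8 T-cell markers had a log2 fold change above 0, and 3 were higher without overlap. Of all tested genes, 15% had groups that did not overlap, in either direction. The part of other cell types in the results below was not tested, beyond the values given beside single genes. In RNA from bulk cells, fewer cells of a type and less RNA per cell cannot be told apart.

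Tkt, the targeted gene, was at 110, 137 and 194 CPM in the WT libraries and at 37.8, 34.6 and 31.5 CPM in the cKO libraries with DMαKG. The gene lies at chr14:30549131-30574724 (mm10). Each cKO library was lower than each WT library, and on average 23.6% of the WT level was left in cKO. The log2 fold change was −2.08 (SE 0.22, adjusted p = 0.00389, edgeR quasi-likelihood test), and Tkt was the 1 gene that also passed at an adjusted p of 0.01. With vehicle the same difference was −1.72 (SE 0.21, adjusted p = 0.0148), from 133, 102 and 111 CPM to 26.2, 37.2 and 41.8 CPM. No source used here says which exons the floxed allele loses, so the remaining reads do not measure intact transcript.

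With DMαKG, 24 of 12903 genes passed an adjusted p of 0.05 (0.186%), 21 higher in cKO (0.163%) and 3 lower (0.0233%). All 24 had genotype groups that did not overlap, against 15% of all tested genes, a share the selection of the 24 raises by itself. The 24 comprised membrane receptors and surface proteins (Kit, Il1r2, Cd80, Tm4sf5, Ifitm2), extracellular matrix proteins (Fn1, Hspg2), the neuropeptide precursor Penk, the proteases Cpe and Bace2, Nbea and Nrn1, the oxidase subunit Ncf1, the p53 target Phlda3, chromatin and transcription genes (Smarcd3, Zfp651, Klf12), signalling and cytoskeletal genes (Rgs12, Dlg5, Pls3), Kynu, Haspin, Slfn5 and Tkt itself. The count depends on the test: the same model without edgeR's robust option called 9 genes, namely Tkt, Kit, Phlda3, Cpe, Smarcd3, Il1r2, Fn1, Ncf1 and Nbea. With Y-linked expression as a covariate 4 were called (Tkt, Kit, Ncf1 and Nrn1). A fit to the 6 libraries alone called 3 (Tkt, Kit and Tspoap1), and leaving out WT replicate 2 or WT replicate 3 left Tkt alone. Leaving out both libraries that stood apart left 5 calls, of which Tkt, Smarcd3 and Dlg5 were among the 24, and all 24 kept their direction at 77.7% to 121% of their log2 fold change.

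**Figure D1:**
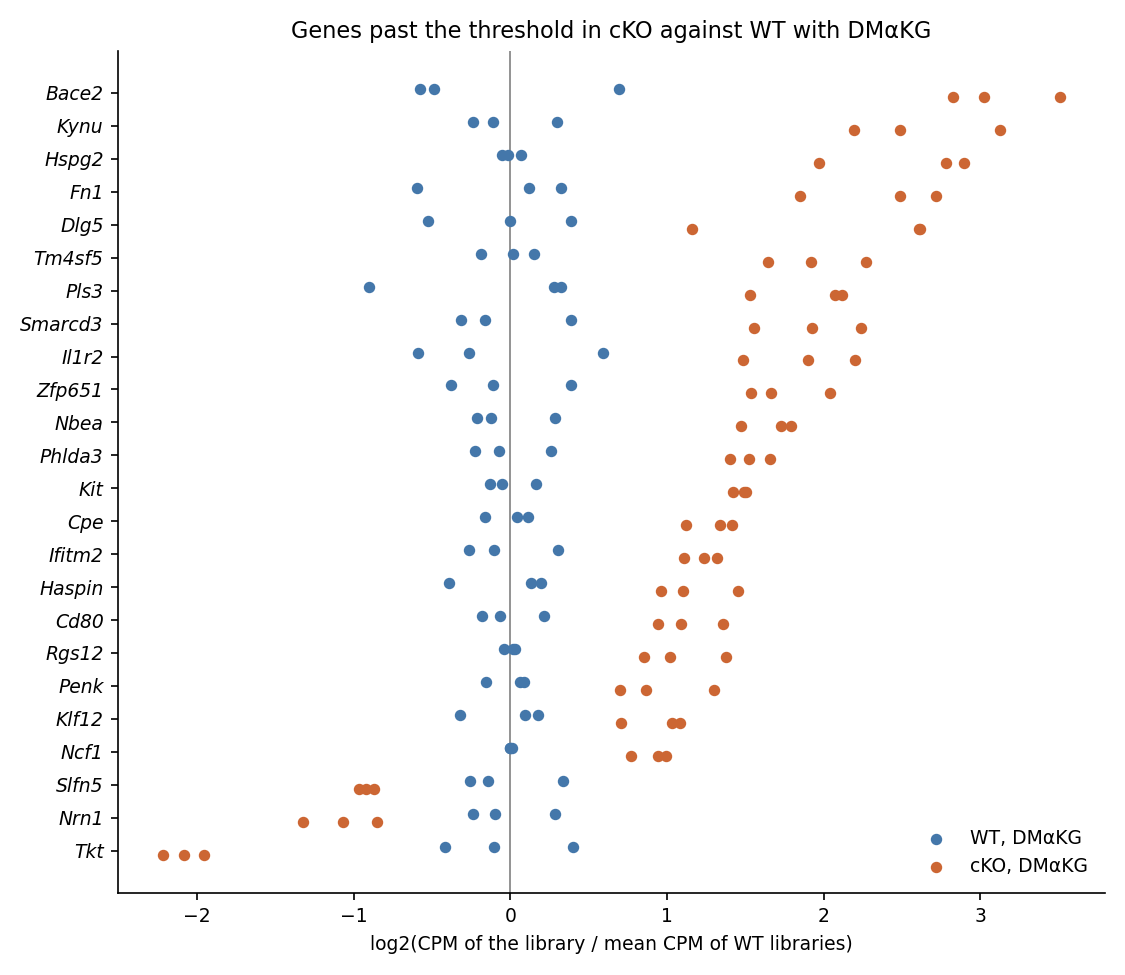
Level of the 24 genes that passed the test, as log2 of each library's CPM over the mean CPM of the 3 WT libraries (x axis), one row per gene; blue points are WT and orange points cKO libraries with DMαKG. The cKO points lie to the right of the WT points in 21 rows and to the left in the rows of Slfn5, Nrn1 and Tkt.

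Kit, the receptor tyrosine kinase for stem cell factor, stood at 7.85, 6.75 and 6.40 CPM in WT and at 18.8, 19.7 and 19.8 CPM in cKO. The gene lies at chr5:75574987-75656722. All 3 cKO libraries were above WT and close together, at a log2 fold change of 1.47 (SE 0.18, adjusted p = 0.0130). Kit is also a mast-cell gene. Of 6 mast-cell markers in the table, chosen after the values were seen, Fcer1a, Mcpt4, Cma1 and Tpsb2 were at 0 in all 6 libraries and Cpa3 was at most 0.267 CPM. The sixth, Ms4a2, was at 2.69, 2.72 and 2.40 CPM in WT and 1.81, 2.19 and 3.56 CPM in cKO, overlapping between the genotypes.

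Il1r2, a decoy receptor that binds interleukin-1 without signalling, was at 60.05, 33.3 and 26.5 CPM in WT and at 149, 112 and 184 CPM in cKO. It rose 3.71-fold (log2 1.89, SE 0.28, adjusted p = 0.0415). Neutrophils also express Il1r2. The neutrophil gene S100a8 was at 0, 0.113 and 0.534 CPM in WT and at 0.194, 0.0577 and 11.6 CPM in cKO, and S100a9 at 0, 0.113 and 0.640 CPM and at 0.389, 0.404 and 11.001 CPM. Both were highest in cKO replicate 3, the library with the most Il1r2, while the other cKO libraries held 149 and 112 CPM of Il1r2 with both genes at or below 0.404 CPM. The part of neutrophil RNA in the Il1r2 values was not tested. Without cKO replicate 3 the log2 fold change of Il1r2 was 1.71 and did not pass (adjusted p = 0.0848). It also did not pass without WT replicate 2, WT replicate 3, cKO replicate 1 or cKO replicate 2, each left out alone.

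Cd80, a ligand of both CD28 and CTLA-4, was at 3.36 to 4.42 CPM in WT and at 7.32, 8.08 and 9.73 CPM in cKO (log2 1.14, SE 0.20, adjusted p = 0.0468). Antigen-presenting cells express Cd80 as well. Summed B-cell markers did not overlap, at 32.4 to 39.5 CPM in WT and 49.2 to 87.7 CPM in cKO. Without Cd22 they were at 27.3, 25.5 and 59.8 CPM in cKO replicates 1, 2 and 3 and 21.3 to 30.4 CPM in WT. All 13 tested B-cell markers were above 0 in log2 fold change, and 3 of them were higher without overlap. Summed dendritic-cell markers overlapped narrowly, at 148 to 219 CPM in WT and 215 to 366 CPM in cKO. Of their 14 tested members 3 were higher without overlap, among them Cd74 (49.7 to 81.4 against 110 to 135 CPM). Of all tested genes, 15% had groups that did not overlap, in either direction. Whether the B-cell and dendritic-cell counts exceed that share was not tested. Summed macrophage and monocyte markers overlapped, at 60.02 to 223 CPM in WT and 94.5 to 264 CPM in cKO. The part of these cells in the Cd80 result was not tested. Tm4sf5, a small membrane protein of the L6 family, rose from 0.510 to 0.644 CPM in WT to 1.81 to 2.80 CPM in cKO (log2 1.95, SE 0.32). Ifitm2, an interferon-induced membrane protein that restricts virus entry, rose from 3.25 to 4.82 CPM to 8.42 to 9.73 CPM (log2 1.22, SE 0.22), with an adjusted p of 0.04997 that lies just inside the threshold. Cd80 and Ifitm2, like Kynu, Rgs12, Bace2 and Klf12 below, lie outside the 15 genes named by smallest p and were chosen after their values were seen.

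Both matrix genes that passed were low in WT. Fn1, fibronectin, was at 1.23, 1.42 and 0.747 CPM in WT and at 6.35, 7.44 and 4.07 CPM in cKO. All 3 cKO libraries exceeded the highest WT library, 5.26-fold between the means (log2 2.39, SE 0.36, adjusted p = 0.0415). Hspg2, the basement-membrane proteoglycan perlecan, was at 0.469, 0.510 and 0.480 CPM in WT and at 3.63, 3.35 and 1.91 CPM in cKO (log2 2.59, SE 0.43, adjusted p = 0.0466).

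Penk, which encodes proenkephalin and is expressed in Tregs, stood at 97.4, 115 and 113 CPM in WT and at 198, 177 and 267 CPM in cKO (log2 0.98, SE 0.17, adjusted p = 0.0468). Cpe, carboxypeptidase E, which trims prohormones such as proenkephalin, rose from 5.51, 6.35 and 6.67 CPM to 16.4, 15.6 and 13.4 CPM (log2 1.29, SE 0.18, adjusted p = 0.0284). Nrn1, neuritin, a membrane-anchored protein first described in neurons and also known in Tregs, fell from 34.3, 49.3 and 37.9 CPM to 22.5, 16.2 and 19.3 CPM (log2 −1.07, SE 0.18, adjusted p = 0.0466). Bace2, an aspartyl protease related to β-secretase, had the largest log2 fold change of the 24 at 3.14 (SE 0.55), from 0.267 to 0.644 CPM in WT to 2.83 to 4.53 CPM in cKO, a low level with a wide error. Nbea, neurobeachin, a vesicle-trafficking protein, rose from 0.747 to 1.05 CPM to 2.40 to 3.00 CPM (log2 1.67, SE 0.27); it overlaps Mab21l1, and as no source used here says whether counting used strand, its reads cannot be assigned with certainty.

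Ncf1, which organises the phagocyte NADPH oxidase and is also called p47phox, was nearly constant in WT at 18.7, 18.9 and 18.8 CPM and stood at 32.1, 36.2 and 37.4 CPM in cKO (log2 0.90, SE 0.14, adjusted p = 0.0415). The catalytic subunit Cybb did not pass, at 48.4, 61.2 and 82.4 CPM in WT and 39.8, 26.7 and 48.6 CPM in cKO (log2 −0.74, adjusted p = 0.331), and of the 10 tested NADPH oxidase genes 5 were above and 5 below 0. Phlda3, a p53 target whose product restrains Akt at the membrane, was at 1.58, 2.21 and 1.76 CPM in WT and at 5.31, 5.83 and 4.90 CPM in cKO (log2 1.53, SE 0.21, adjusted p = 0.0284).

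Of the chromatin and transcription genes, Smarcd3, a subunit of the SWI/SNF remodelling complex, rose from 1.64, 1.47 and 2.40 CPM to 8.68, 6.98 and 5.41 CPM (log2 1.93, SE 0.28, adjusted p = 0.0372). It overlaps Chpf2, which lay at 46.1 CPM in WT and 40.01 in cKO (log2 −0.20, adjusted p = 0.718). Zfp651, a zinc-finger protein, rose from 0.534 to 0.907 CPM to 2.02 to 2.86 CPM (log2 1.76, SE 0.29), and Klf12, a Krüppel-like repressor, from 7.47 to 10.5 CPM to 15.2 to 19.8 CPM (log2 0.95, SE 0.17). Dlg5, a scaffold of cell junctions and polarity, was at 0.996, 1.30 and 0.694 CPM in WT and at 6.09, 6.12 and 2.23 CPM in cKO, with cKO replicate 3 well below the other cKO libraries (log2 2.27, SE 0.40, adjusted p = 0.0468). Pls3, an actin-bundling plastin, rose from 0.800 to 1.87 CPM to 4.33 to 6.48 CPM (log2 1.93), and Rgs12, which shortens G-protein signals, from 7.84 to 8.22 CPM to 14.6 to 20.9 CPM (log2 1.10). Kynu, kynureninase of the tryptophan breakdown pathway, rose from 0.586 to 0.850 CPM to 3.17 to 6.04 CPM (log2 2.64, SE 0.46).

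Haspin, a histone H3 kinase of mitosis, was at 28.8, 27.7 and 19.2 CPM in WT and at 69.0, 54.2 and 49.1 CPM in cKO (log2 1.19, SE 0.20, adjusted p = 0.0466). The gene, at chr11:73135484-73138294, lies within Itgae (chr11:73090505-73147449), the CD103 integrin chain carried by effector and tissue Tregs, so their reads may not be separable. Itgae itself was at 188, 172 and 148 CPM in WT and at 463, 299 and 261 CPM in cKO, without overlap, and did not pass (log2 1.01, SE 0.21, adjusted p = 0.0945). Slfn5, an interferon-inducible Schlafen protein, fell from 208, 193 and 291 CPM to 126, 118 and 122 CPM (log2 −0.92, SE 0.16, adjusted p = 0.0468); the 3 cKO libraries were close together and the WT spread came from replicate 3.

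Because α-ketoglutarate feeds the TET enzymes, which act at CpG, promoter sequences are shown for 4 of the genes that rose. The 4 differ widely in CpG content. Methylation was not measured here. The windows run from 250 bases before to 50 bases after the transcript start, in RefSeq's GRCm38.p6 assembly (mm10), with each CpG in capitals. They lie at chr5:75574737-75575036 on the plus strand for the first of 2 Kit starts, at chr1:135765835-135766134 (plus) for Phlda3, at chr1:40085843-40086142 (plus) for Il1r2, and at chr5:134229576-134229875 on the minus strand for Ncf1.
Kit: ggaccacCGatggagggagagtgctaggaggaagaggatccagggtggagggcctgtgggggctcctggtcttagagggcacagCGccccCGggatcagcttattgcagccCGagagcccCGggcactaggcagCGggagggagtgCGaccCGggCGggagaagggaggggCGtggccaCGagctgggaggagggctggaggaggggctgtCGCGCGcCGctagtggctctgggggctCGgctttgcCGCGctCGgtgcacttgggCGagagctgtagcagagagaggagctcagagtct
Phlda3: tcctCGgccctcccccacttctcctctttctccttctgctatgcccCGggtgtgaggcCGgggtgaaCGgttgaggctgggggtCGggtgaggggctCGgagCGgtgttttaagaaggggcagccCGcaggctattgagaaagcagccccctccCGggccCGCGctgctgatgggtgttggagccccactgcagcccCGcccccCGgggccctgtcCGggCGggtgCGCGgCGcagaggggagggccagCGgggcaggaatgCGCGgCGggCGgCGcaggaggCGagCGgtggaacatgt
Il1r2: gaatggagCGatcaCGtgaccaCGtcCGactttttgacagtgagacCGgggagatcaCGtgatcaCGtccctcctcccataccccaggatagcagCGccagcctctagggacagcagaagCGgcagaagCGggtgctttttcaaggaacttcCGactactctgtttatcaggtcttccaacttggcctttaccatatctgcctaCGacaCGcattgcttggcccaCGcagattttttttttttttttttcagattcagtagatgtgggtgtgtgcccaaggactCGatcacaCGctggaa
Ncf1: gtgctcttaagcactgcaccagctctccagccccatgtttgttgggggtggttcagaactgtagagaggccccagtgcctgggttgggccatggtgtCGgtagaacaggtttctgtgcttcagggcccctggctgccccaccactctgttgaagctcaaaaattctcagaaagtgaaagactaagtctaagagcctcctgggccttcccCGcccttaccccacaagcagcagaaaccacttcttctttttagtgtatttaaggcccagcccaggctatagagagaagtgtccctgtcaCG

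The Kit window held 20 CpG, that of Phlda3 26, that of Il1r2 16 and that of Ncf1 3. Of 13250 such windows of tested genes, 6.12% held fewer CpG than that of Ncf1, 38.8% fewer than Il1r2, 50.4% fewer than Kit and 68.8% fewer than Phlda3. A window was at hand for 18 of the 24 genes, 22 windows in all, with a median of 14 CpG against 19 over all tested genes; Smarcd3 and Zfp651 had 40 and 46 and the window of Cd80 had 3. The letters TTCNNNGAA of a STAT site, searched on both strands, were found in the windows of Il1r2, Ncf1 and Dlg5 and in 6.93% of all windows. The AP-1 letters TGANTCA were found in Cd80 and 1 Rgs12 window and in 5.03% of all windows. A match describes the letters only.

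**Figure D2:**
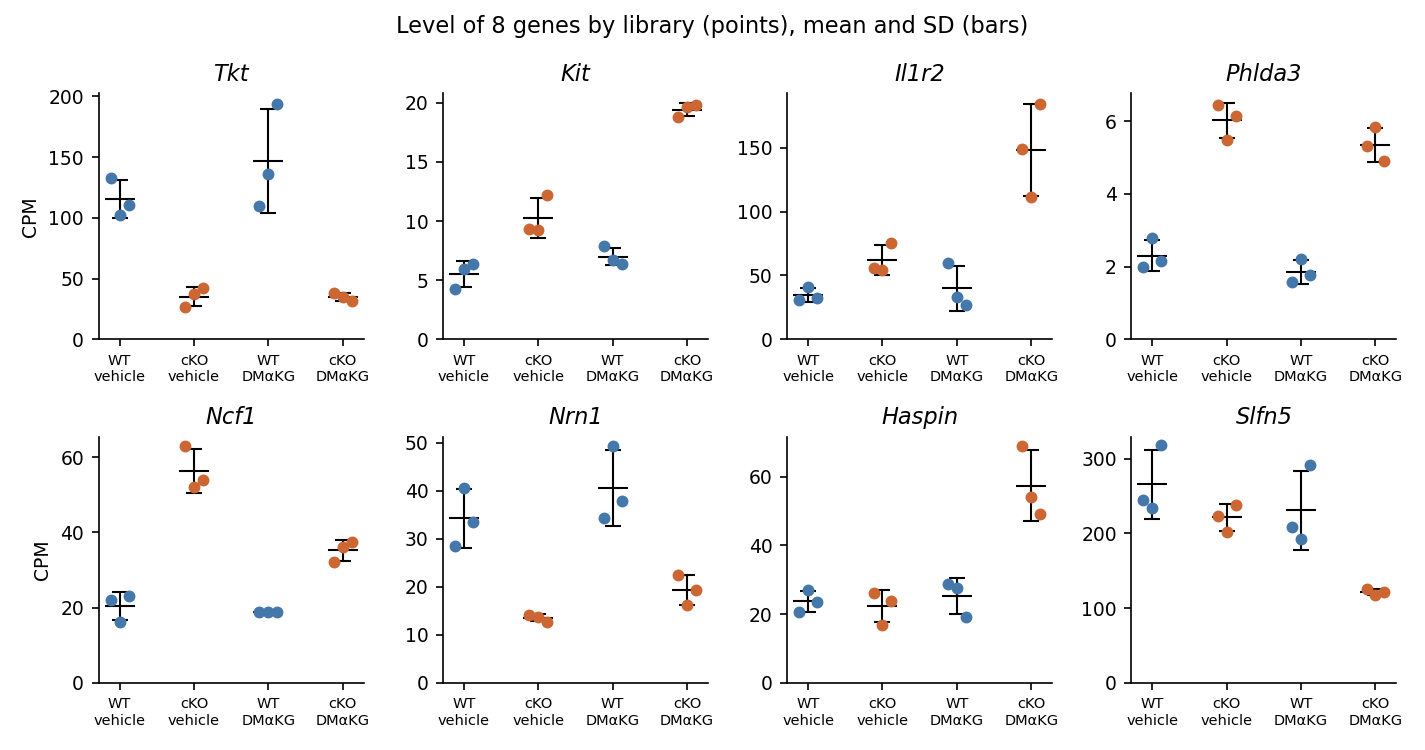
CPM of 8 genes (y axis, from 0, a scale of its own in each panel) in the 12 libraries, by genotype and treatment (x axis); points are libraries, with the mean and SD of 3. Kit reaches 18.8 to 19.8 CPM in cKO with DMαKG, and Haspin is separated by genotype with DMαKG but not with vehicle.

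The 24 genes were then read in the 6 vehicle libraries, which share no library with the DMαKG comparison but share its estimate of spread. Of the 24, 23 had the same direction with vehicle, where 57.3% of all tested genes did; 21 had it at an unadjusted p below 0.05 (7.29% of all tested genes had such a p with vehicle, in either direction), and 20 without overlap of the groups (15.3% of all tested genes, in either direction). Tkt, Ncf1, Nrn1 and Phlda3 passed in both treatments, out of 8 genes that passed with vehicle (0.0620%). For 22 of the 24 the difference was smaller in size with vehicle, which choosing the genes on the DMαKG libraries favours. Phlda3 differed by 1.53 with DMαKG and 1.39 with vehicle, Fn1 by 2.39 and 2.02, Rgs12 by 1.10 and 0.84, and Kit by 1.47 and 0.90, all on the log2 scale. Ncf1 and Nrn1 were the 2 with the larger difference with vehicle, at 1.47 against 0.90 for Ncf1 and −1.34 against −1.07 for Nrn1.

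Haspin was the gene without the same direction, at −0.09 with vehicle (interaction unadjusted p = 0.000603), and Itgae around it was at 0.05 with vehicle. Kynu differed by 0.57 with vehicle against 2.64 with DMαKG, Smarcd3 by 0.63 against 1.93, Il1r2 by 0.83 against 1.89, and Slfn5 by −0.26 against −0.92. The interaction, which tests whether the genotype difference depends on treatment, had an unadjusted p below 0.05 for 8 of the 24. Choosing the genes on the DMαKG libraries favours such a count, as the difference with DMαKG is part of the interaction. After adjustment it passed for 0 of 12903 genes (0.00%) with edgeR, where 470 had an unadjusted p below 0.05 (3.64%); DESeq2 and limma voom each called 1 gene, Ncoa7. For none of the 24 was the genotype difference shown to depend on DMαKG.

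Of the 8 genes that passed with vehicle, 7 had the same direction with DMαKG. The exception was Ncoa7, a nuclear receptor coactivator, higher by 0.64 with vehicle and at 122, 110 and 125 CPM in WT against 104, 103 and 115 CPM in cKO with DMαKG (log2 −0.15, adjusted p = 0.632; interaction unadjusted p = 8.86e-05, adjusted p = 0.955). Cxcr6, a chemokine receptor of tissue-homing T cells, differed by −1.74 with vehicle and by −0.54 with DMαKG, at 7.32, 10.8 and 11.4 CPM in WT and 7.25, 6.06 and 7.00 CPM in cKO (adjusted p = 0.507); it overlaps Fyco1. Cc2d2a, a protein of the base of the primary cilium, differed by −1.98 with vehicle and −1.26 with DMαKG (adjusted p = 0.156), and 5830411N06Rik by −2.36 and −1.97 (adjusted p = 0.0795).

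**Figure D3:**
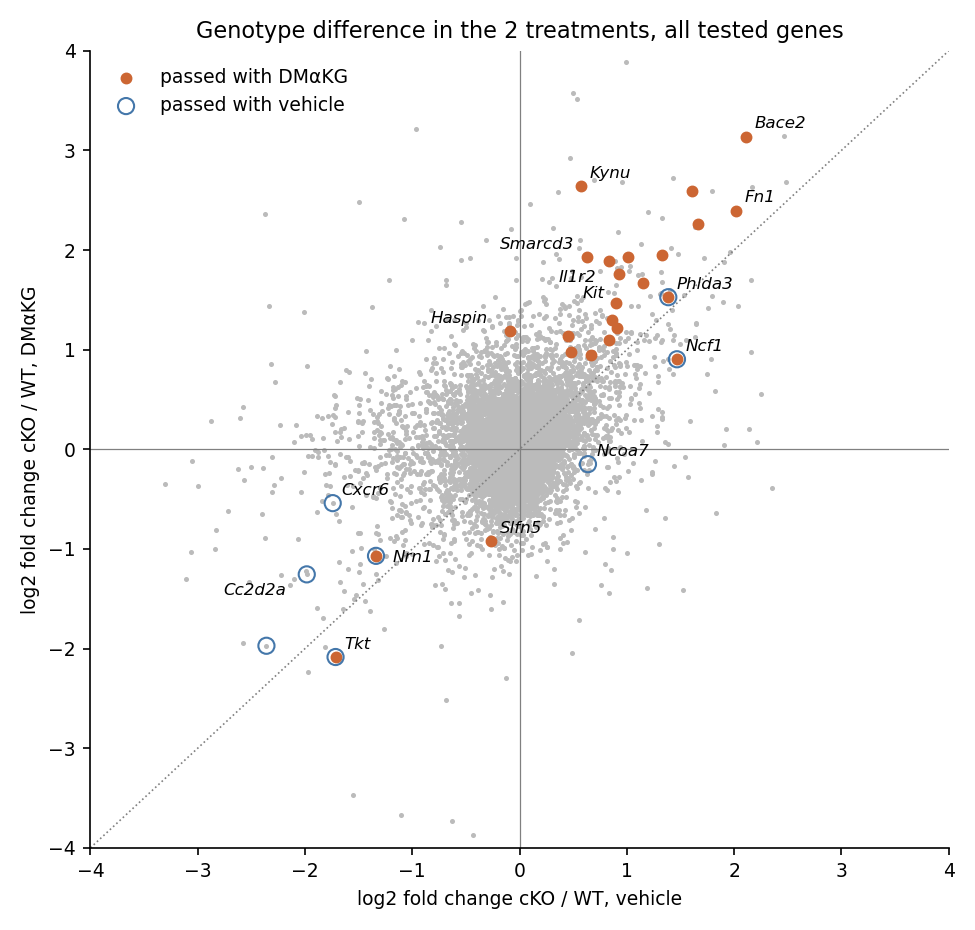
Genotype difference (log2 fold change, cKO over WT) with DMαKG (y axis) against vehicle (x axis) for all tested genes within ±4; orange points passed with DMαKG, blue rings with vehicle, and the dotted line marks equal differences. Tkt, Nrn1, Phlda3 and Ncf1 carry both marks, and Haspin and Ncoa7 lie across an axis from the direction in which they passed.

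Gene lists were described by counts and medians, beside a median of −0.00044 and 50% above 0 over all tested genes (51.6% with vehicle). In the pentose phosphate pathway, Tkt was the 1 of 15 tested genes that passed, and the list's median was 0.03 (−0.02 without cKO replicate 3). G6pdx, the entry enzyme of the oxidative arm, was at 47.9, 47.1 and 44.0 CPM in WT and 50.2, 39.7 and 58.5 CPM in cKO (log2 0.09, SE 0.15). Taldo1, transaldolase of the same non-oxidative arm, differed by 0.03 (SE 0.14), and the transketolase-like gene Tktl1 was at 1.60 to 2.49 CPM in WT and 1.04 to 1.88 CPM in cKO (log2 −0.44, SE 0.35).

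Among 27 glycolysis genes 20 were above 0 and none passed; Eno2, an enolase isoform, was nearest at 4.10, 5.10 and 5.50 CPM in WT and 12.1, 11.8 and 8.78 CPM in cKO (log2 1.15, adjusted p = 0.0872). The 27 tricarboxylic acid cycle genes had a median of 0.02 (−0.03 without WT replicate 3), with 14 above and 13 below 0. Of 23 tested genes of α-ketoglutarate and glutamine metabolism none passed. The glutaminase gene Gls2 was at 0.107 to 0.397 CPM in WT and 0.763 to 1.23 CPM in cKO (log2 1.91, adjusted p = 0.145), and the aspartate aminotransferase Got1 at 31.3 to 48.8 CPM and 58.5 to 95.1 CPM (log2 0.83, adjusted p = 0.165).

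Of the 40 tested 2-oxoglutarate-dependent dioxygenases, the enzymes that use α-ketoglutarate, 27 were below and 13 above 0, with a median of −0.07 (−0.04 without cKO replicate 3) and none past the threshold. Plod2, a collagen lysyl hydroxylase of this family, was nearest at 6.68, 5.61 and 5.98 CPM in WT and 14.1, 9.35 and 10.4 CPM in cKO (log2 0.89, adjusted p = 0.0981). Tet1 differed by 0.11 (SE 0.14), Tet2 by 0.08 (SE 0.15) and Tet3 by −0.34 (SE 0.20), with overlapping groups. The DNA methyltransferases Dnmt1 and Dnmt3a differed by −0.19 (SE 0.28) and 0.18 (SE 0.12). These values concern the enzymes' RNA and say nothing of their activity.

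**Figure D4:**
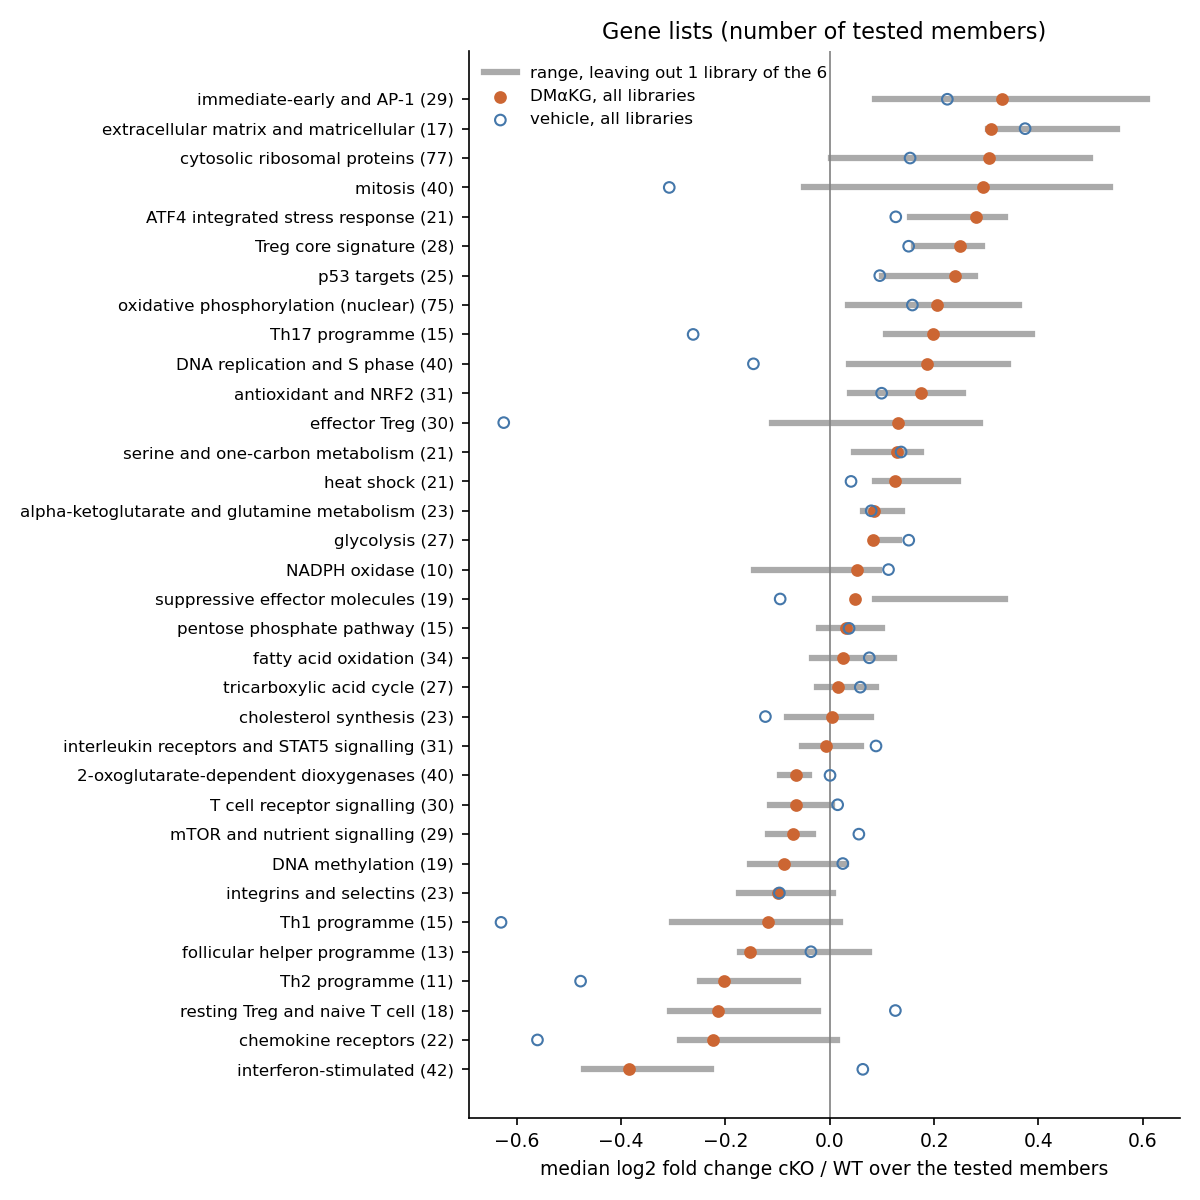
Median log2 fold change, cKO over WT, over the tested members of each gene list (x axis; number of members in brackets); orange points are DMαKG, open blue points vehicle, and grey bars the range of the DMαKG median when 1 of the 6 libraries is left out. Marker lists of other cell types are not drawn. Of the lists drawn, the interferon-stimulated list lies lowest at −0.38, and the bar of the mitosis list crosses 0; the median of the suppressive effector list lies outside its bar because the genes tested change with the libraries.

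Of 42 tested interferon-stimulated genes, 37 were below and 5 above 0 with DMαKG, with a median of −0.38; with vehicle the median was 0.06 and 26 were above 0. Slfn5 was the 1 member that passed. Ifitm2, the interferon-induced gene that passed and was higher in cKO (log2 1.22), is not on this list. Of the members, 11 were lower at an unadjusted p below 0.05 (4.95% of all tested genes were) and 2 higher (5.49% of all were). Among them, named after their values were seen, Ifit2, an antiviral tetratricopeptide protein, was at 79.1, 71.5 and 79.6 CPM in WT and 49.2, 54.1 and 60.7 CPM in cKO (log2 −0.49, adjusted p = 0.167). Oas2, an oligoadenylate synthetase, was at 13.2, 13.3 and 23.3 CPM and 5.76, 8.25 and 9.09 CPM (log2 −1.11, adjusted p = 0.327). Gbp2, an interferon-inducible guanylate-binding protein, went the other way, from 124 to 131 CPM to 163 to 281 CPM (log2 0.68, adjusted p = 0.263). By library, the median deviation of the list's members was 0.02, 0.00 and 0.52 in WT and −0.21, −0.27 and 0.03 in cKO, so the groups overlapped and WT replicate 3 was the highest; without that library the median difference was −0.23.

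Of 17 tested extracellular matrix genes, 12 were above 0, Fn1 and Hspg2 passed, and the median was 0.31 with DMαKG and 0.37 with vehicle. Lama5, a laminin chain, was at 6.33, 5.95 and 8.003 CPM in WT and 10.04, 26.9 and 17.9 CPM in cKO (log2 1.44, adjusted p = 0.144), with cKO replicates 2 and 3 far above replicate 1. By library the WT medians of −0.24, −0.26 and −0.18 lay below the cKO medians of 0.20, 0.43 and 0.03, and the median difference was 0.30 to 0.55 when 1 of the 6 libraries was left out. The list of stromal and endothelial markers shares collagen genes with the matrix list and had 3 tested members. Each of its library medians is therefore the value of a single gene. They were −0.52, −0.26 and −0.28 in WT and 0.34, 0.38 and 0.03 in cKO, without overlap. In WT replicate 2 and cKO replicate 3 they equal the medians of the matrix list, so the separation of these lists is not independent. The stromal list's member Col1a2, a collagen chain, was at 1.93, 1.81 and 2.29 CPM in WT and 5.05, 4.44 and 2.73 CPM in cKO (log2 1.01, SE 0.30, adjusted p = 0.267). The summed level of the 10 markers in the table was 144 to 215 CPM in WT and 164 to 186 CPM in cKO, most of it Pecam1, and Dcn, Col3a1 and Pdgfra were at or below 0.127 CPM in all 6 libraries. The part of stromal RNA in the matrix values was not tested.

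Of 25 tested p53 targets 18 were above 0, with a median of 0.24 (0.10 without WT replicate 3), and Phlda3 was the 1 that passed. Cdkn1a, the p21 cell-cycle inhibitor, was at 5.04, 5.05 and 1.92 CPM in WT and 12.1, 7.44 and 9.73 CPM in cKO (log2 1.29, adjusted p = 0.282). Bax, a promoter of apoptosis, was at 49.99 to 58.3 CPM and 64.5 to 71.3 CPM (log2 0.36, adjusted p = 0.267), both without overlap of the groups. Of the antioxidant list, 20 of 31 were above 0 and none passed; Nfe2l2, which encodes NRF2 itself, was at 22.7, 19.5 and 37.2 CPM in WT and 15.5, 13.8 and 15.1 CPM in cKO (log2 −0.84, adjusted p = 0.163).

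Of the 28 core Treg genes, 19 were above and 9 below 0, with a median of 0.25 (0.16 without cKO replicate 1), and Penk was the 1 that passed. Foxp3 differed by −0.05 (SE 0.20), Il2ra, the high-affinity interleukin-2 receptor chain, by −0.12 (SE 0.18), Ikzf2, the factor Helios, by 0.08 (SE 0.14) and Il10 by −0.33 (SE 0.56), none of them past the threshold. Ctla4, the inhibitory receptor through which Tregs restrain antigen-presenting cells, was at 1722, 1722 and 514 CPM in WT and 1965, 2307 and 3001 CPM in cKO. The groups did not overlap, the WT spread was set by replicate 3, and the difference did not pass (log2 0.88, SE 0.40, adjusted p = 0.478). Tnfrsf18, the receptor GITR, was at 222, 236 and 173 CPM in WT and 278, 239 and 350 CPM in cKO (log2 0.46, adjusted p = 0.347).

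Effector Treg genes had a median of 0.13 with DMαKG, 17 above and 13 below 0, and of −0.63 with vehicle, 8 above and 22 below; whether the 2 medians differ was not tested, and the DMαKG median ran from −0.11 to 0.29 when 1 library was left out. Ccr8 was at 67.3, 76.1 and 34.7 CPM in WT and 127, 86.2 and 96.5 CPM in cKO (log2 0.80, adjusted p = 0.304), while Ccr2, a receptor for inflammatory chemokines, was at 36.4, 38.5 and 37.3 CPM and 14.1, 11.1 and 18.4 CPM (log2 −1.37, adjusted p = 0.264). Of 22 tested chemokine receptors none passed, with a median of −0.22 that turned to 0.01 without cKO replicate 1. Ccr9, the gut-homing receptor, was nearest at 8.16 to 11.8 CPM in WT and 4.39 to 5.66 CPM in cKO (log2 −0.98, adjusted p = 0.137). The T helper lists had medians of −0.12 for Th1, −0.20 for Th2 and 0.20 for Th17 genes, with none past the threshold. The Th1 median turned positive without WT replicate 1 (0.02), cKO replicate 1 (0.01) or cKO replicate 2 (0.01) and was −0.30 without cKO replicate 3. The Th2 median was −0.06 without cKO replicate 3, and the Th17 median ran from 0.11 without cKO replicate 2 to 0.39 without cKO replicate 1.

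Lists tied to growth moved with single libraries. Of 40 mitosis genes 38 were above 0 with DMαKG (median 0.29) and 4 with vehicle (median −0.31), yet with DMαKG 0 had an unadjusted p below 0.05 and 0 passed; the median ran from −0.05 without cKO replicate 1 to 0.54 without WT replicate 2. All 77 cytosolic ribosomal protein genes were above 0, with a median of 0.31 that fell to 0.0018 without cKO replicate 3, and none passed. Of 29 immediate-early genes 25 were above 0 (median 0.33); by library their medians were 0.07, 0.22 and −0.88 in WT and 0.39, 0.30 and −0.05 in cKO, and without WT replicate 3 the difference was 0.09. Of 75 nuclear genes of oxidative phosphorylation 71 were above 0, with a median of 0.21 that was 0.04 without cKO replicate 3, and none passed.

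Of all 43 lists, 9 had library medians that did not overlap between the genotypes, all higher in cKO. They were the core Treg, Th17, glycolysis, α-ketoglutarate and glutamine, p53, extracellular matrix, plasma-cell, CD8 T-cell and stromal lists. The gap was narrow for several, such as glycolysis with at most −0.05 in WT and at least −0.02 in cKO. Among single tested genes, 15% had groups that did not overlap, in either direction. The plasma-cell and CD8 T-cell lists had 6 tested members each and the stromal list 3, and the stromal and matrix lists share genes. The 9 are therefore not independent, and whether 9 of 43 exceeds the share among single genes was not tested.

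**Figure D5:**
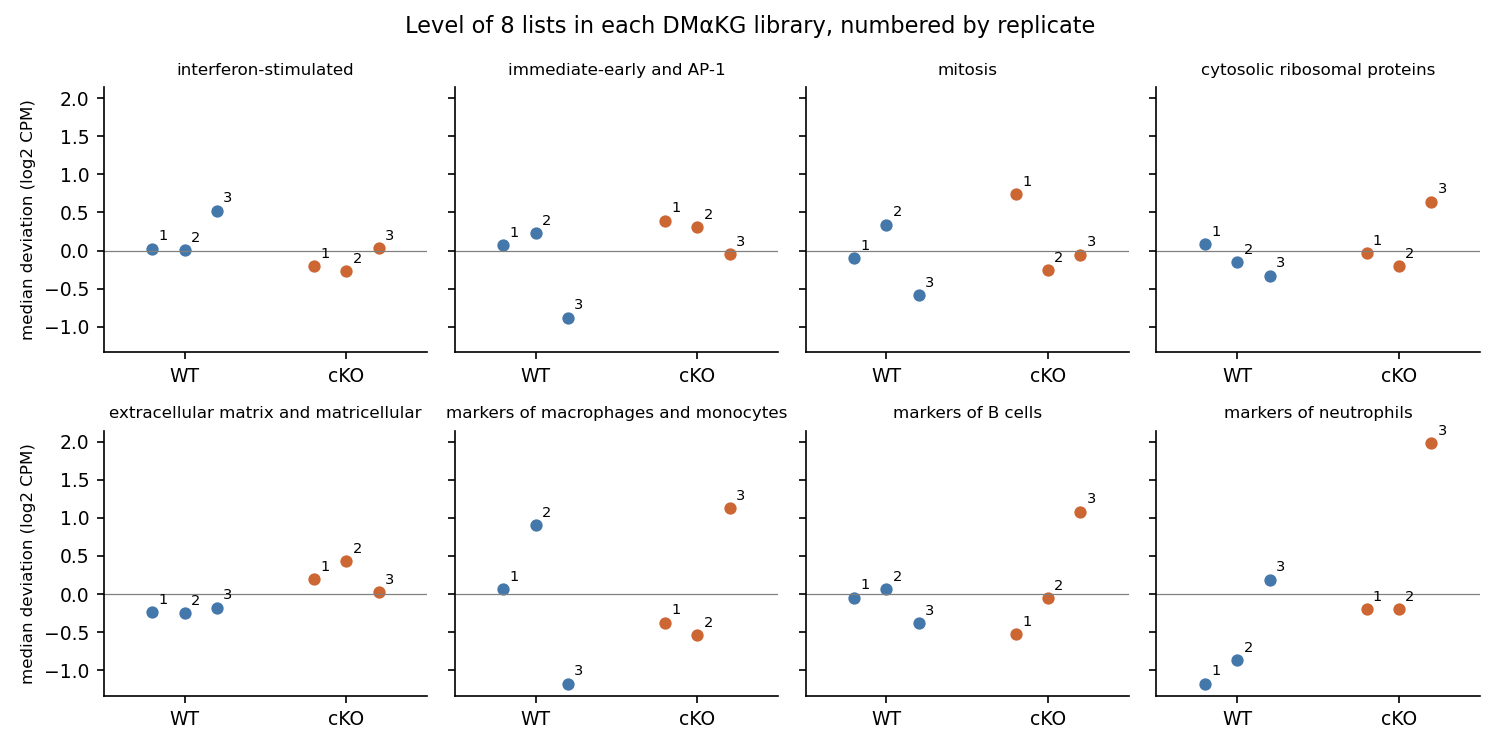
Median over the members of 8 gene lists of the deviation of log2 CPM from the mean of the 6 DMαKG libraries (y axis), by genotype (x axis), with the replicate number beside each point. Among the 8 lists drawn the WT and cKO points do not overlap for the extracellular matrix list, and cKO replicate 3 is highest in the 3 lists of markers of other cells, at 1.98 for neutrophils.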

How the data were processed

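Per the labels' protocols, RNA isolated with Trizol went to Illumina sequencing. Per the submitters' processing notes the build was mm10, and the tools listed, without roles, were DESeq2 1.16.1, featureCounts 1.5.0-p3 and HISAT2 2.0.5. The authors deposited 1 table of estimated counts, FPKM and TPM per gene and library. The estimated counts deposited are not normalized; 36.0% were not whole, so they were rounded. The FPKM and TPM the authors deposited are scaled by gene length and library, per the file headers, and were not tested.

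All 12 libraries were fitted with edgeR 4.0.16 in R 4.3.3: expression filter (12903 genes), TMM scaling, 1 mean per group, quasi-likelihood test with robust estimation of spread, 8 residual degrees of freedom, a common biological coefficient of variation of 19.7%, Benjamini-Hochberg adjustment over all tested genes and a threshold of 0.05. The robust option was set as in an earlier treatment of these data, with the counts of calls with and without it (24 and 9) known. Members and gene lists were chosen with earlier results of these data known. Alternatives used DESeq2 1.42.0 and limma 3.58.1.

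On simulated counts for 12772 genes in this comparison, with 50 genes changed at each size and means of at least 5 CPM, the test found 14% of those changed 1.5 times, 84% of those changed 2 times, 96% for 3 times and 98% for 4 times, with 4 false calls among 150. The counts were drawn independently for each gene, with no library standing apart as both replicates 3 did. Several called genes, such as Hspg2 and Bace2, were below 5 CPM in every library. The simulation also changed 200 genes and gave 150 calls, against 24 in the data. An adjusted p passes more easily where more genes are called, so the threshold was easier to reach there. The simulated rates therefore need not hold for the 24 calls. Genes were named by rule: Tkt, 6 Treg genes, up to 15 genes past the threshold per direction by smallest p, the genes past it with vehicle, and per list up to 4 members past it or else the 2 with the smallest p; members named beyond this were chosen after their values were seen. Coordinates and promoters are from RefSeq GRCm38.p6, to which 17901 of 17955 genes were matched. No source used here says whether reads were counted by strand.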

Additional observations from a re-analysis of the deposited data

How the results depend on the processing

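For cKO against WT with DMαKG, against 24 calls, other settings gave 0 calls with a replicate block (1205 genes at an unadjusted p below 0.05), 9 without edgeR's robust option, 4 with Y-linked expression as a covariate (Nrn1, Tkt, Ncf1 and Kit), 5 without WT and cKO replicate 3 together, 3 from the 6 libraries alone, 1 at an adjusted p of 0.01, 140 with DESeq2 and 237 with limma voom. Leaving out 1 of the 12 libraries gave 1 to 33 calls; 2 calls were left on removing replicate 2 of WT or replicate 3 of cKO given vehicle, 3 without WT replicate 1, cKO replicate 1 or cKO replicate 2 with DMαKG, and 5 and 10 without WT vehicle replicates 4 and 3. With vehicle, against 8 calls, there were 3 with DESeq2 size factors, 1 with the replicate block, 3 without the robust option, 3 with the Y-linked covariate, 100 with DESeq2, 245 with limma voom, and 1 to 5 with 1 library left out. The interaction gave 1 call each with DESeq2 and limma voom and 0 in the other settings. The 24 genes kept their direction in all 23 other fits, at 82.3% to 119% of their log2 fold change with the Y-linked covariate. The causes were not tested. Same-numbered WT and cKO libraries had correlations of deviations of −0.25, −0.0943 and −0.28 with DMαKG and of −0.12, 0.14 and 0.47 with vehicle. Pairs with different numbers ran from −0.0952 to 0.275 with DMαKG and from −0.423 to 0.409 with vehicle. Deviations from a mean of 3 libraries cannot settle whether replicate numbers pair the libraries. With 3 mice per group, a median standard error of 0.18 (log2) limits what can be called. The added settings (robust option, Y-linked covariate, both replicates 3 left out) were chosen after seeing the data.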

Other observations

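Of 21 tested genes of serine and one-carbon metabolism 14 were above 0 with DMαKG, with a median log2 fold change of 0.13 (0.05 without cKO replicate 1) and none past the threshold. The 34 tested fatty acid oxidation genes had a median of 0.03 (−0.03 without cKO replicate 3); Cpt1a, the carnitine transferase that admits fatty acids to mitochondria, was at 109, 140 and 96.9 CPM in WT and 95.9, 74.9 and 49.98 CPM in cKO (log2 −0.65, adjusted p = 0.413). The 23 cholesterol synthesis genes had a median of 0.00 (−0.08 without cKO replicate 3), and Sqle, squalene epoxidase, was at 16.3 to 19.1 CPM in WT and 12.6 to 14.8 CPM in cKO (log2 −0.37, adjusted p = 0.363). Of 21 tested genes of the ATF4 stress response 19 were above 0 (median 0.28, and 0.15 without cKO replicate 1); Asns, asparagine synthetase, was at 9.61, 10.6 and 7.31 CPM in WT and 18.7, 9.18 and 21.7 CPM in cKO, with overlapping groups (log2 0.85, adjusted p = 0.331).

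Of 29 nutrient-signalling genes 21 were below 0 (median −0.07, and −0.03 without cKO replicate 3). Ddit4, an inhibitor of mTOR induced by stress, was at 56.2, 53.6 and 109 CPM in WT and 30.4, 46.5 and 18.3 CPM in cKO (log2 −1.20, adjusted p = 0.334), without overlap; WT replicate 3 was the highest and cKO replicate 3 the lowest library. Cd22, a sialic acid-binding receptor of B cells, was at 10.3, 9.07 and 11.1 CPM in WT and 21.8, 27.8 and 27.9 CPM in cKO (log2 1.35, adjusted p = 0.0795), while Ms4a1, the gene of CD20, was at 1.17 to 1.36 CPM and 0.972, 0.808 and 5.21 CPM in the same groups.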
